A study of Rattus norvegicus with 6 samples.

Results

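Genes that build and run the mitotic spindle and the kinetochore were examined in the renal cortex of rats given monuron, a phenylurea herbicide. The list held 33 genes, chosen by name, and 32 of them had at least 1 array probe whose accession names the gene. Bub1b had none, and 31 of the 30229 genes measured above background were members. Each gene is given by its brightest probe over the 6 arrays. The list was put together with the monuron against corn oil values of these same arrays known. Those values are therefore a description of the members, carry no test, and support nothing about the list.

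Male Sprague-Dawley rats, bought at 5 weeks of age, received monuron at 200 mg/kg/day for 4 weeks (3 rats) or the vehicle corn oil for 4 weeks (3 rats). RNA of each renal cortex, carrying the dye Cy3, was read on 1 Agilent array of long oligonucleotide probes. The 3 monuron arrays lay on 1 slide and the 3 corn oil arrays on another, scanned on different days, and the effect of treatment cannot be told apart from that of slide or scan day. Between 68.7% and 70.4% of probes were well above background with monuron, and between 60.9% and 70.1% with corn oil. Levels are the processed spot signal divided by the array's own 75th percentile, so a level of 1 equals that percentile. A probe that was not well above its local background on an array is called dim there. Probes differ in brightness for reasons other than transcript amount, so levels are compared between arrays and not between genes. Markers of proximal tubule (9 of 9 listed), of the loop, distal tubule and collecting duct (8 of 8) and of the podocyte (5 of 5) were well above background on all 6 arrays.

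Mitosis separates the copied chromosomes. Kinetochores, protein plates on each centromere, hold spindle microtubules, the spindle checkpoint delays anaphase until every chromosome is held, and the anaphase-promoting complex then triggers separation, followed by cytokinesis. Most of these genes are transcribed late in the cell cycle and shut down in resting cells, and tubule cells of the adult kidney divide rarely. The roles given here are known mainly from human and mouse cells and from yeast.

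Hepatocyte markers (8 measured, 0 called) stood apart on single arrays, with a summed level of 32.5 on monuron replicate 1 and 14.6 on corn oil replicate 3, against 11.0 and 9.78 on the other monuron arrays and 4.14 and 4.39 on the other corn oil arrays. Without both of those arrays the median log2 fold change of the members was 1.23 and all 31 were above 0. In that fit, with 2 arrays a group, 0 of all 30229 genes passed limma's adjusted p. So 0 of the 31 members and 0 of the 137 other mitotic genes did. An unadjusted p under 0.05 was found for 4137 of all genes.

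All 31 measured members had higher mean levels in monuron-dosed cortex than in corn oil cortex, where 55.1% of all genes did. The median log2 fold change over the 31 was 1.32, beside 0.02 over all genes tested, and 19 members were at least 2-fold higher, where 1.59% of all genes were. For 30 of the 31 every monuron array lay above every corn oil array, as for 15.3% of all genes tested, and Mad2l1 was the exception. In limma's fit across all 30229 genes 18 of the 31 passed an adjusted p of 0.05 as higher and 0 as lower, where 0.923% of all genes passed as higher and 0.427% as lower (1.35% in either direction), and 1.13% of the 12072 genes with a symbol passed as higher. Nothing is read from these counts, since the list was chosen with them known. Without monuron replicates 1, 2 and 3 in turn, 7, 9 and 7 members passed, and without corn oil replicates 1, 2 and 3 in turn 10, 11 and 11 passed. Calls over all 30229 genes, in either direction, fell in the same fits too, from 408 to between 34 and 137. The drop was therefore not particular to the members. Of the 31, 24 were well above background on all 6 arrays, and 7 were so on the 3 monuron arrays but not on every corn oil array, which means that these 7 entered through the group in which they were brighter. In a bulk sample a larger share of dividing cells and more transcript per cell cannot be told apart.

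Markers of other cell types were read beside the members. All 9 measured erythroid markers had every monuron array above every corn oil array on their brightest probe. Of these 5 rose, among them Alas2 (adjusted p = 0.0111) and Klf1 (adjusted p = 0.0260). The 2 probes of Klf1 gave log2 fold changes of 0.16 and 0.90, and those of Epor -0.06 and 0.25. The summed level of the erythroid markers was 1521 to 1636 with monuron and 647 to 890 with corn oil. That of the members was 22.3 to 25.2 with monuron and 12.8 to 13.6 with corn oil. Bright probes weigh most in such sums. The globin gene Hba-a1 alone stood at 759, 735 and 764 with monuron, and Kif11 among the members at 6.87, 7.46 and 6.03. Gata1, the erythroid transcription factor, was dim on all corn oil arrays. The part of red cell precursors in the members' difference was not tested. T cell markers had log2 fold changes below 0 in 6 of 6 measured, with a summed level of 1.07 to 1.34 with monuron and 1.51 to 1.69 with corn oil. Macrophage markers did so in 8 of 8, with 65.5 to 86.8 with monuron and 71.5 to 118 with corn oil. Of these and of the B cell (2 measured), endothelial (7) and fibroblast (7) markers 0 were called by limma. Proximal tubule markers were above 0 in 2 of 9 (median -0.25), with a summed level of 1217 to 1296 with monuron and 1335 to 1467 with corn oil, and 0 were called. All 8 hepatocyte markers were above 0 (median 1.08, 5 at least 2-fold), and their part in the members' difference was not tested. Injured tubule markers rose in 2 of 5 measured, Havcr1 and Spp1, with a summed level of 23.3 to 41.8 with monuron and 17.0 to 25.0 with corn oil.

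**Figure D1:**
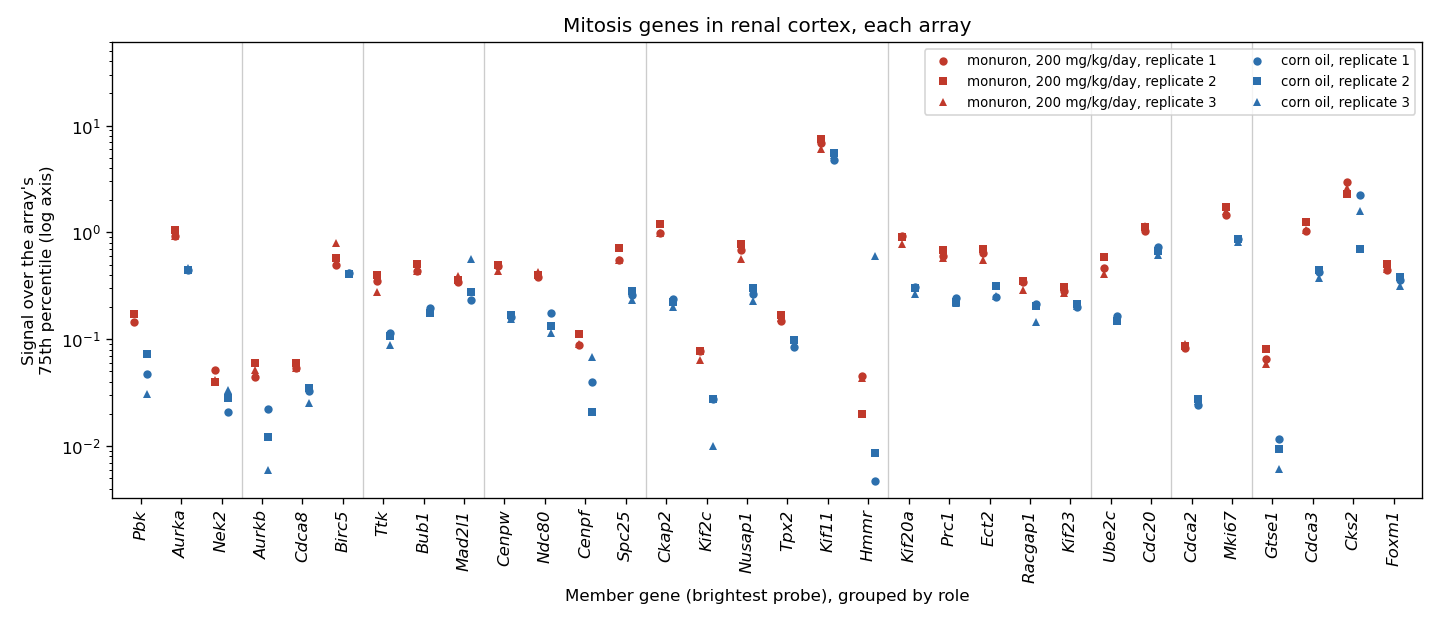
Signal over the array's 75th percentile (log axis) for the 32 members with a probe, grouped by role, with 1 point per array (red monuron, blue corn oil; circle, square and triangle are replicates 1, 2 and 3). The red points lie above the blue ones for all but Mad2l1 and Hmmr, whose corn oil replicate 3 stood at 0.566 and 0.595.

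The promoters of the members were read from RefSeq (build GRCr8). It held a window of 300 bases, 250 before to 50 after the annotated start, for 26 of the 33. Aurkb, Cdca2, Foxm1, Pbk, Racgap1, Tpx2 and Ube2c had no window in that table. Late cell cycle promoters in human and mouse are known for the cell cycle genes homology region (CHR), TTTGAA or its variant TTTAAA, to which the MuvB complex binds, and for the CCAAT box, to which NF-Y binds. A CHR or its variant together with a CCAAT box was in 16 of the 26 windows, and the upstream stretches of 8 of these, picked as examples after the matches were seen, are shown with both motifs. Each runs 5′ to 3′ on the gene's strand and ends at the base before the start, and capitals mark a CHR, a CHR variant or a CCAAT box on either strand (TTCAAA and ATTGG are the reverse complements).
Cdc20, chr5:137255800-137255899, minus strand: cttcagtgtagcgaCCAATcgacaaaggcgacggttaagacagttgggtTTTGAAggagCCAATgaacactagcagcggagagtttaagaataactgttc
Spc25, chr3:74396719-74396828, minus strand: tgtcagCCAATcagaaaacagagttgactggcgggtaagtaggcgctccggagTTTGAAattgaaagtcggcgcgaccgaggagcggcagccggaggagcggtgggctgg
Prc1, chr1:143659421-143659480, plus strand: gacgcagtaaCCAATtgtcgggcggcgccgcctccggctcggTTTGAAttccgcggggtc
Cks2, chr17:13727520-13727629, minus strand: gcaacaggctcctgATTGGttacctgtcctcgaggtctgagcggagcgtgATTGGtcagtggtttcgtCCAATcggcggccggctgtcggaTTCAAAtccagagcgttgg
Hmmr, chr10:25665216-25665305, minus strand: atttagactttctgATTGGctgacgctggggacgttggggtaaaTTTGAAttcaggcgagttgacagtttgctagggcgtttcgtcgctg
Kif23, chr8:71320585-71320684, minus strand: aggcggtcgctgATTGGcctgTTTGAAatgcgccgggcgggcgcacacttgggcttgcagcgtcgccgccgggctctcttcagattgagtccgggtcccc
Ckap2, chr16:76541974-76542113, plus strand: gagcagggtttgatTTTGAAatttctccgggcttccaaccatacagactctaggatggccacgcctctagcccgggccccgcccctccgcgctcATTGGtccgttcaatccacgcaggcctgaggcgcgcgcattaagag
Kif11, chr1:244536787-244536866, plus strand: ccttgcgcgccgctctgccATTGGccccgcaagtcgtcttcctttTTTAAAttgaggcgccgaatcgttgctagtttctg

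The CHR letters TTTGAA were present in 18 of the 26 member windows (69.2%), against 18.1% of all 27457 RefSeq gene windows and 12.3% of the 9858 windows of genes measured on the arrays. The variant TTTAAA was in 9 (34.6%), against 13.5% of all windows, and 24 of 26 members held the CHR or its variant, against 27.9%. CCAAT was in 18 member windows (69.2%), against 37.7% of all windows, and 14 of the 26 held at least 2 copies (53.8%), against 11.5%. A CHR together with a CCAAT box was in 14 member windows (53.8%), against 7.25% of all windows. In Cdc20 the CHR begins 51 bases before the start with CCAAT boxes beginning at 86 and 41 bases before it, and in Prc1 the CHR begins at 18 and the nearest CCAAT box at 50 bases before the start. The E2F letters TTCCCGCC were in 1 member window (3.85%), that of Kif23, against 2.02% of all windows and 3.44% of those of measured genes. TTTGGCGC was in 0, against 0.521% and 0.822%. In windows of measured genes TTTAAA was in 9.28%, the CHR or its variant in 19.7% and CCAAT in 38.1%. At least 2 copies of CCAAT were in 13.2% of them, and a CHR with a CCAAT box in 5.10%. In 2 member windows matches of different motifs overlap. The median GC content was 58.3% in member windows, 59.7% in windows of measured genes and 52.3% in all windows. Matches are counts of letters on both strands and not sites shown to be bound.

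**Figure D2:**
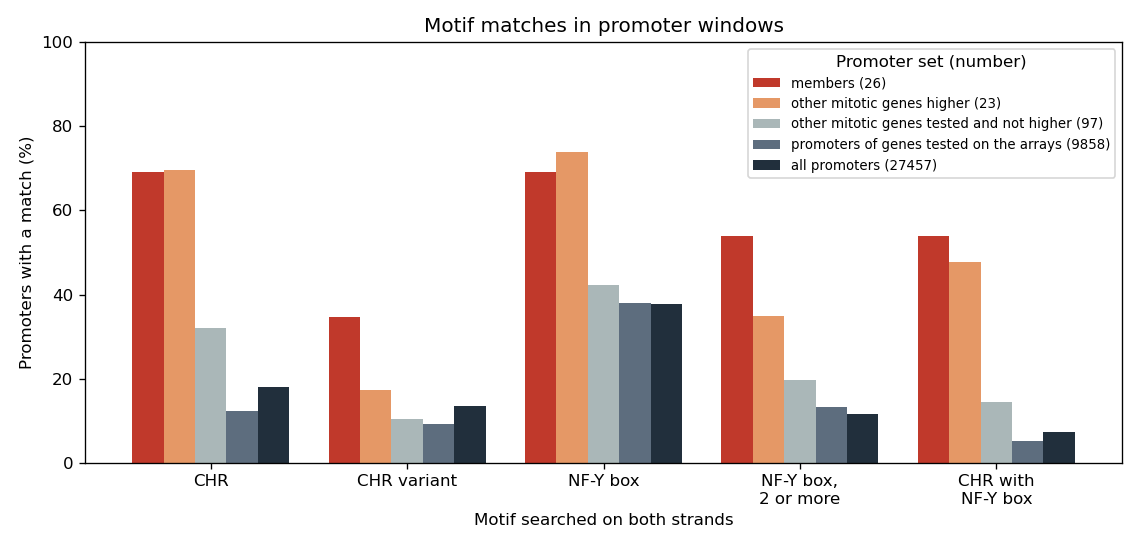
Percent of 300-base promoter windows with a match on either strand, for 5 sets of genes (number of windows in the legend); the NF-Y box is the CCAAT box. Member windows held a CHR in 69.2% and 2 or more NF-Y boxes in 53.8%, against 18.1% and 11.5% of all windows.

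The mitotic kinases come first in the order of events. Aurka encodes Aurora A, which matures the centrosomes and builds the spindle poles. Its level was 0.920, 1.055 and 0.926 on monuron replicates 1 to 3, against 0.442, 0.447 and 0.469 on corn oil replicates 1 to 3. The arrays of each group lay close together, and monuron was 2.13-fold above corn oil (95% interval 1.86 to 2.45), with a second probe at a log2 fold change of 0.93. Pbk, a kinase of mitotic cells also called TOPK, stood at 0.144, 0.171 and 0.174 with monuron and at 0.0472, 0.0733 and 0.0310 with corn oil. The corn oil arrays spread more than the monuron arrays, and the ratio was 3.42-fold (2.01 to 5.81). Nek2, a centrosome kinase, stood at 0.0520, 0.0397 and 0.0420 with monuron and 0.0209, 0.0280 and 0.0335 with corn oil, where it was dim on 1 of 3 arrays. Its ratio was 1.64-fold, the smallest of these kinases. Its 3 probes gave between 0.71 and 1.10 as log2 values, and on the probe at 1.10 the groups overlapped.

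Aurkb, Birc5 and Cdca8 encode Aurora B, survivin and borealin of the chromosomal passenger complex, which corrects faulty attachments. Aurkb stood at 0.0441, 0.0596 and 0.0516 with monuron and at 0.0224, 0.0123 and 0.00594 with corn oil, where it was dim on 2 of 3 arrays. The log2 fold change was 2.13 ± 0.47 (SE). It was 0.94 with a floor on low values and 0.42 with normexp background correction and quantile normalization. Birc5 was measured on all arrays, at 0.497, 0.573 and 0.791 with monuron and 0.421, 0.408 and 0.414 with corn oil. Monuron replicate 3 was the highest, and the ratio was 1.47-fold (1.09 to 1.98). Cdca8 stood at 0.0539, 0.0595 and 0.0538 with monuron and at 0.0326, 0.0348 and 0.0252 with corn oil, where it was dim on 2 of 3 arrays (1.82-fold, 1.44 to 2.30).

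The spindle checkpoint genes differed among themselves. Ttk, which encodes the checkpoint kinase MPS1, stood at 0.354, 0.402 and 0.274 with monuron and at 0.114, 0.106 and 0.0892 with corn oil, a ratio of 3.31-fold (2.48 to 4.42). Its 3 probes ran from 1.71 to 2.55 on the log2 scale, the highest from a probe dim on all corn oil arrays. Bub1, a kinase that recruits checkpoint proteins to the kinetochore, was at 0.434, 0.511 and 0.432 with monuron and 0.195, 0.175 and 0.181 with corn oil (2.49-fold, 2.12 to 2.93). Mad2l1 encodes MAD2, the checkpoint inhibitor of CDC20. It stood at 0.346, 0.357 and 0.394 with monuron and at 0.235, 0.278 and 0.566 with corn oil. Corn oil replicate 3 lay above all other arrays, the groups overlapped, and the ratio was 1.10-fold with an interval of 0.625 to 1.92. The log2 fold change of 0.13 ± 0.33 became 0.51 without corn oil replicate 3, -0.12 without corn oil replicate 1 and -0.37 with spike-in scaling.

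All 4 kinetochore members were at least 2-fold higher. Ndc80, the microtubule-binding subunit of the complex that bears its name, was at 0.379, 0.400 and 0.429 with monuron and 0.175, 0.133 and 0.114 with corn oil (2.91-fold, 2.20 to 3.85). Cenpw, a histone-fold protein of the inner kinetochore, had the tightest interval of the group, 2.92-fold (2.55 to 3.34), from 0.487, 0.496 and 0.436 with monuron and 0.163, 0.168 and 0.155 with corn oil, and its 3 probes ran from 1.40 to 1.58 on the log2 scale. Spc25, another subunit of the NDC80 complex, had the smallest ratio, from 0.549, 0.709 and 0.554 with monuron against 0.258, 0.283 and 0.232 with corn oil (2.34-fold, 1.86 to 2.93). Cenpf, a large protein of the outer kinetochore, disagreed between probes. Its brightest probe stood at 0.0877, 0.112 and 0.0898 with monuron and 0.0396, 0.0207 and 0.0682 with corn oil, where it was dim on 1 of 3 arrays (2.50-fold, 1.21 to 5.18). A second probe had its highest value of 0.117 on corn oil replicate 1, so that its groups overlapped with a log2 fold change of 0.59.

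Spindle genes held the largest difference measured well above background on all 6 arrays. Ckap2, a microtubule-stabilising spindle protein, stood at 0.985, 1.19 and 0.983 with monuron and at 0.238, 0.223 and 0.198 with corn oil. The ratio was 4.78-fold (3.94 to 5.81), and its 3 probes agreed within 2.19 and 2.26 on the log2 scale. Kif2c, a kinesin that takes microtubules apart, stood at 0.0278, 0.0276 and 0.0101 with corn oil against 0.0776, 0.0784 and 0.0644 with monuron. It was dim on 2 of 3 corn oil arrays (3.70-fold, 1.83 to 7.46). A second kept probe, well above background on 1 corn oil array, gave a log2 fold change of 1.30 against 1.89. Nusap1, which bundles spindle microtubules, was 2.55-fold higher, and Tpx2, the activator of Aurora A on the spindle, 1.67-fold (log2 fold change 0.74 ± 0.09). Kif11, the motor that pushes the poles apart, had the smallest ratio of the measured spindle members, from 6.87, 7.46 and 6.03 with monuron against 4.75, 5.50 and 5.27 with corn oil (1.31-fold, 1.09 to 1.57). Its other 2 probes gave 0.48 and 0.60 on the log2 scale, and with spike-in scaling the brightest probe stood at -0.12.

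Hmmr, which encodes the spindle assembly factor RHAMM, did not meet the detection filter. It stood at 0.0451, 0.0200 and 0.0436 with monuron and at 0.00474, 0.00853 and 0.595 with corn oil. The value on corn oil replicate 3 was above every other array's, and the probe was well above background on 2 monuron arrays and 1 corn oil array. Hmmr and Mad2l1 had their highest level on the same corn oil array, although 18 of the 31 measured members were lowest on that array within their group.

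The ratios of the cytokinesis members ran from 1.38-fold for Kif23 to 2.99-fold for Kif20a. Kif20a, a kinesin that carries passenger proteins to the midzone, was at 0.931, 0.914 and 0.771 with monuron and 0.306, 0.300 and 0.267 with corn oil (2.99-fold, 2.50 to 3.58). Kif23, the kinesin subunit of centralspindlin, was at 0.281, 0.308 and 0.270 with monuron and 0.201, 0.213 and 0.206 with corn oil. Its groups did not overlap, but the ratio was 1.38-fold (log2 fold change 0.47 ± 0.07), and the log2 fold change was -0.03 with spike-in scaling. Racgap1, its centralspindlin partner, was 1.75-fold higher with 3 probes from 0.74 to 0.91. Prc1, which crosslinks midzone microtubules, was at 0.607, 0.680 and 0.580 with monuron and 0.245, 0.223 and 0.219 with corn oil, and a second probe, dim on 2 of 3 corn oil arrays, gave a log2 fold change of 2.07 against 1.44. Ect2, the exchange factor that activates RhoA at the cleavage furrow, was 2.31-fold higher.

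Of the genes of anaphase promotion, Ube2c, the ubiquitin-conjugating enzyme of the anaphase-promoting complex, stood at 0.469, 0.585 and 0.412 with monuron and 0.166, 0.147 and 0.151 with corn oil (3.13-fold, 2.46 to 3.98). Cdc20, its mitotic activator, stood at 1.03, 1.12 and 1.14 with monuron and 0.729, 0.671 and 0.617 with corn oil (1.64-fold, 1.41 to 1.90). Mki67 encodes Ki-67, which coats mitotic chromosomes, and stood at 1.47, 1.71 and 1.57 with monuron against 0.874, 0.863 and 0.816 with corn oil. All 5 of its probes were kept, with log2 fold changes from 0.90 to 1.35, the brightest giving the smallest. Cdca2, which brings protein phosphatase 1 to chromosomes, stood at 0.0825, 0.0872 and 0.0898 with monuron and at 0.0242, 0.0273 and 0.0264 with corn oil, where it was dim on 1 of 3 arrays (3.33-fold, 2.92 to 3.79). With normexp and quantile normalization its log2 fold change was 0.72, against 1.74.

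Among regulators, Gtse1, a microtubule-binding regulator of p53, was dim on all 3 corn oil arrays. It stood at 0.0653, 0.0809 and 0.0583 with monuron and at 0.0116, 0.00933 and 0.00613 with corn oil. Against a floor on the corn oil values the ratio was 2.87-fold. The floor is the lowest signal well above background of any probe on each corn oil array. It is no strict bound, since a dim probe can lie above it. With normexp and quantile normalization the log2 fold change of Gtse1 was 0.78. Cdca3, an adaptor for the degradation of WEE1, was at 1.02, 1.24 and 1.06 with monuron and 0.430, 0.448 and 0.373 with corn oil (2.66-fold, 2.20 to 3.22). Cks2, a CDK-binding subunit, stood at 2.99, 2.27 and 2.63 with monuron and at 2.26, 0.702 and 1.60 with corn oil. Its groups nearly met, corn oil replicate 2 was far below the other 2, and the interval of the ratio ran from 0.925 to 3.98. Foxm1, the transcription factor that activates many genes of this list, stood at 0.445, 0.511 and 0.453 with monuron and 0.361, 0.380 and 0.318 with corn oil. Its ratio of 1.33-fold (1.12 to 1.57) was smaller than that of all but 2 of the measured members, Kif11 and Mad2l1, and it was -0.09 on the log2 scale with spike-in scaling.

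**Figure D3:**
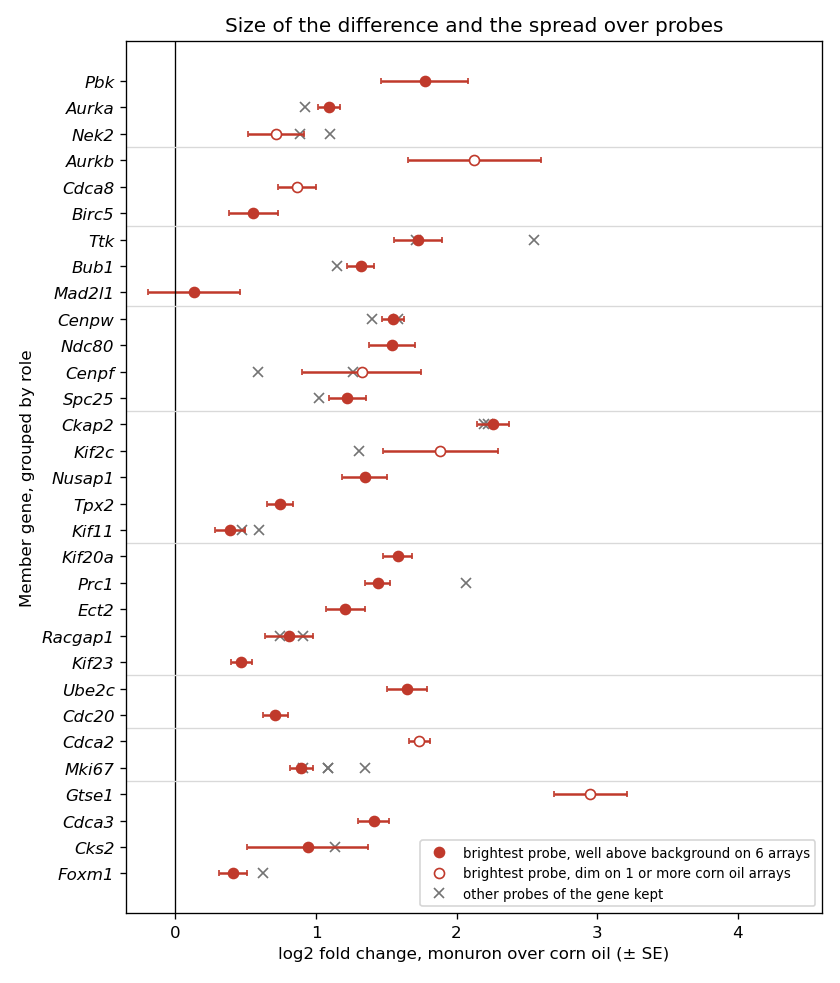
Log2 fold change of monuron over corn oil with its standard error for the 31 measured members, grouped by role (filled, well above background on all 6 arrays; open, dim on 1 or more corn oil arrays; crosses, other probes of the gene). Values run from 0.13 for Mad2l1 to 2.95 for Gtse1, which was dim on all corn oil arrays, and probes of Ttk, Prc1, Cenpf, Kif2c and Mki67 lie apart.

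Over all probes, 61 were named for a member and 56 were kept by the detection filter. All 56 had a log2 fold change above 0, and in 52 every monuron array lay above every corn oil array. The matching shares over all kept probes were not computed. Some of the 56 were dim on corn oil arrays and entered through the monuron group, in which they were brighter. These counts describe the members and carry no test. In the 15 members with several kept probes, the size of the difference varied between probes and its direction did not.

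The spread of the members within a group does not use the contrast between groups. Among the 3 monuron arrays, 22 of the 31 members were highest on replicate 2, whereas over all genes 32.6% were highest there. The median deviation of the members from their group mean was 0.11 on the log2 scale on that array, -0.07 on replicate 1 and -0.08 on replicate 3. Among the corn oil arrays 18 of 31 members were lowest on replicate 3, against 36.4% of all genes, and the median deviation there was -0.09. For the 24 members well above background on all 6 arrays the counts were 17 highest on monuron replicate 2 and 14 lowest on corn oil replicate 3. The members thus tended to share their highest monuron array and their lowest corn oil array, by amounts smaller than the median difference of 1.32 between groups. The other extremes were split. On monuron replicates 1 to 3, 14, 2 and 15 members were lowest, and on corn oil replicates 1 to 3, 15, 11 and 5 were highest. These are counts over genes that share arrays, and they carry no test.

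**Figure D4:**
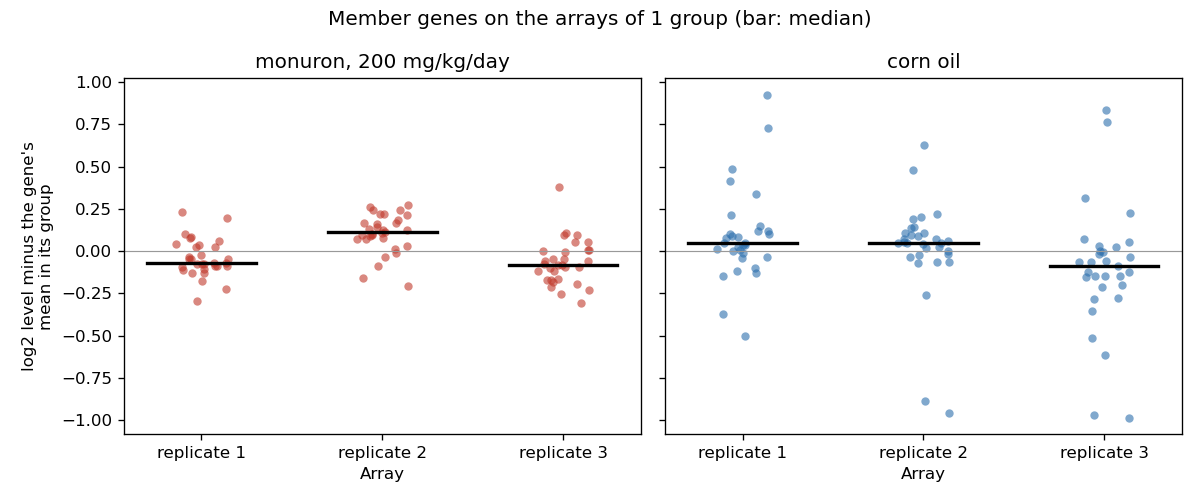
Deviation of each of the 31 measured members from its own group mean (log2 scale) on each monuron array (left) and corn oil array (right), with bars at the medians. The median lies at 0.11 on monuron replicate 2 and at -0.09 on corn oil replicate 3.

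Mitotic genes outside the list were tested in the same limma fit (Benjamini-Hochberg adjusted over all 30229 genes). They were taken from textbook roles in 8 lists of 193 genes, of which 145 had a probe and 137 were measured. Of the 137, 26 rose (19.0%) and 1 fell, beside 0.923% and 0.427% of all genes, and the median log2 fold change was 0.13. The lists were written with some of these results known. Without monuron replicates 1, 2 and 3 in turn, 7, 7 and 4 of the 137 passed in either direction, and without corn oil replicates 1, 2 and 3, 11, 19 and 19. Calls over all genes fell in these fits too, from 408 to between 34 and 137. Leaving out each array in turn was followed gene by gene for 18 of the called genes, up to 4 a list, and of these Ccnb2, Plk1, Ccna2 and Espl1 passed each time.

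The switch that starts mitosis had the largest median of the 8 lists, 1.16, and 8 of its 14 measured genes rose. Ccnb2, a cyclin B, stood at 0.282, 0.293 and 0.252 with monuron and at 0.0826, 0.0767 and 0.0827 with corn oil (3.41-fold, adjusted p = 0.00494). The kinase gene Plk1 was 2.69-fold higher (adjusted p = 0.00767), Ccna2, cyclin A2, 2.94-fold and Ccnb1, cyclin B1, 3.40-fold. The other 4 were Cdk1, Cdc25b, Mastl and Pkmyt1. Mastl was dim on all corn oil arrays and 1.12-fold higher against the floor used for Gtse1. Bora, the cofactor of Aurora A, was not called (log2 fold change 0.69, adjusted p = 0.293).

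Of 25 measured genes of the kinetochore and centromere outside the members, 5 rose and 1 fell (median 0.28). The 5 that rose were Cenpq, Nuf2, Kntc1, Ska1 and Cenpa. Cenpq (2.32-fold, dim on 1 of 3 corn oil arrays) is a constitutive centromere protein, and Nuf2 (2.55-fold, adjusted p = 0.0149) is the partner of Ndc80. Kntc1 (2.46-fold) is the ROD subunit of the checkpoint complex that loads dynein. Ska1 was 3.92-fold higher, dim on 2 of 3 corn oil arrays, and 0.69 on the log2 scale with normexp. Cenpa, the centromeric histone, was dim on all corn oil arrays and 1.155-fold higher against the floor used for Gtse1. Mad1l1, which encodes MAD1, the binding partner of MAD2, fell and stood at 0.582, 0.553 and 0.553 with monuron and at 0.770, 0.727 and 0.795 with corn oil (log2 fold change -0.44 ± 0.07, adjusted p = 0.0497). Its probes ran from -0.63 to -0.16. Mad1l1 was named after its value was seen, as the single fall, and with quantile normalization, median centring or no scaling 0 of the 137 fell. Cenpt, at 1.93 on the log2 scale, missed the threshold (adjusted p = 0.161).

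Of 31 other spindle genes 7 rose and 0 fell (median 0.22). Spag5, which encodes the pole protein astrin, was 2.93-fold higher (adjusted p = 0.00803), the kinesin genes Kif18b and Kif22 2.11-fold and 2.44-fold, and Dlgap5, a microtubule-binding protein of kinetochore fibres, 1.93-fold. Fam83d was not called (0.92, adjusted p = 0.259). Of 13 other cytokinesis genes 3 rose, the kinesin gene Kif20b (1.90-fold), Iqgap3 (2.60-fold, dim on 1 of 3 corn oil arrays) and Cep55, an abscission protein (2.50-fold, adjusted p = 0.0480), and 0 fell (median 0.07). Rhoa, the GTPase that Ect2 activates, stood at -0.33 on the log2 scale and missed the threshold (adjusted p = 0.0718).

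The remaining 4 lists had medians from 0.01 to 0.15, beside 0.02 over all genes. Of 14 condensin, cohesin and separase genes 2 rose (median 0.04), both regulators of sister separation. Espl1, separase, stood at 0.337, 0.378 and 0.325 with monuron and 0.125, 0.135 and 0.128 with corn oil (2.68-fold, adjusted p = 0.00655), and Pttg1, securin, which holds separase inactive, stood at 3.055, 2.88 and 2.67 with monuron and 1.02, 1.295 and 0.972 with corn oil (2.63-fold, adjusted p = 0.0145). Smc2, of condensin, was at 0.44 and was not called (adjusted p = 0.343). Of 16 genes of the anaphase-promoting complex 0 were called (median 0.01), with Fbxo5, its inhibitor EMI1, at 1.18 (adjusted p = 0.0872). Of 8 centrosome and centriole genes 0 were called (median 0.07), with Nedd1 at 0.67 (adjusted p = 0.0801). Of 16 genes of the MuvB, E2F and NF-Y regulators 1 rose, E2f1 (1.87-fold, adjusted p = 0.0195, median 0.15), and Mybl2, the B-MYB subunit that joins MuvB, was not called (0.49, adjusted p = 0.324).

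**Figure D5:**
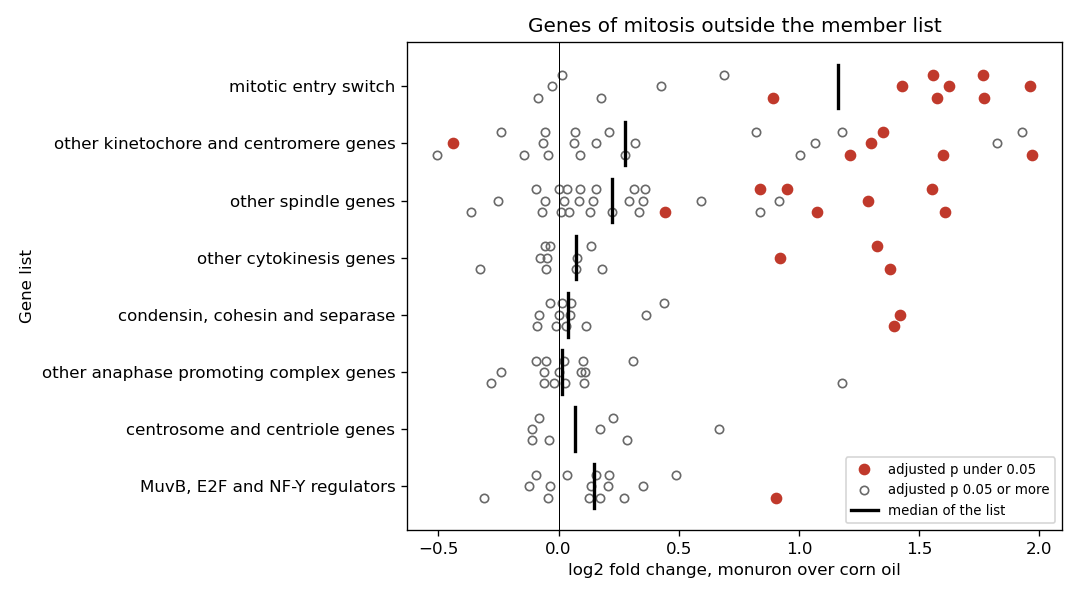
Log2 fold change of monuron over corn oil for 137 mitotic genes outside the member list, in 8 lists (filled, adjusted p under 0.05; open, not; black bar, median). The filled points lie mainly in the entry, kinetochore, spindle and cytokinesis lists, and the medians run from 1.16 for the entry switch to 0.01 for the anaphase-promoting complex.

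The CHR letters were in 16 of 23 promoter windows of the other mitotic genes that rose (69.6%) and in 31 of 97 windows of those measured that did not (32.0%). A CHR with a CCAAT box was in 47.8% and 14.4%. These are shares of letters in windows and carry no test. The split uses calls from these same arrays, and the part of the motifs in the difference was not tested.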

How the data were processed

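Expression was measured in renal cortex of 3 monuron-dosed and 3 corn oil rats, 1 array each. The deposited scanner files hold spot intensity on a linear scale, and Agilent Feature Extraction 10.7 is the tool that the submitters' processing notes name. The values deposited as a table by the authors are a linear ratio, the processed signal over 1 constant per array, as a comparison of both shows. Control spots (1439) and outlier spots were left out. The processed signal was divided by its 75th percentile on that array, and log2 was taken. Probes entered where a whole group (all 3 arrays) had them well above background (41125 of 61537). Accessions matched to RefSeq (GRCr8) named 28206 probes (45.8%), and the probe with the highest mean stands for a gene. The mean spot signal was not in the files used, so the median spot signal entered normexp.

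The test was limma 3.58.1 (lmFit and eBayes, two-sided, R 4.3.3) with Benjamini-Hochberg adjustment. All adjusted p-values are from it. The fit was tested on simulated data first. The members and lists were chosen with earlier results of these data known. Values per array are given for the members with the largest and smallest difference in each role and those dim or differing between probes. Of each other list up to 4 called genes and the uncalled gene with the largest difference are named. Cdk1, Cdc25b, Mastl, Pkmyt1, Cenpa and Mad1l1 were named beside these after their values were seen. Protein motifs were not analysed here. The number of arrays limits the precision. The design text speaks of biological replicates.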

Additional observations from a re-analysis of the deposited data

How the results depend on the processing

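Each group lay on its own slide, so no alternative separates slide from treatment. The other settings were 19, and 1 more, leaving out both arrays highest in hepatocyte markers, was chosen after seeing the data. The median log2 fold change of the members was 1.32 and above 0 in every one of them. It was 0.81 with spike-in scaling, 0.82 with normexp and quantile normalization, 1.21 with a floor on low values, 1.21 with probes of a gene averaged, and 1.21 to 1.36 without each array in turn. Spike-in scaling moved the median of all genes from 0.02 to -0.48, and 4 members then lay below 0 (Foxm1 -0.09, Kif11 -0.12, Kif23 -0.03, Mad2l1 -0.37), as did Mybl2 (-0.01) and Smc2 (-0.07). Without corn oil replicate 1 Mad2l1 was at -0.12, and without the pair of arrays high in hepatocyte markers at 0.55. The cause of these shifts was not tested.

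Of all genes 408 were called (279 higher, 129 lower). The number was 20966 with spike-in scaling (302 higher, 20664 lower), 766 with normexp (448 and 318), 713 with trend and robust eBayes (431 and 282), 86 without a detection filter (67 and 19) and 34 to 137 without each array in turn. Without scaling 366 were higher and 61 lower. Members called higher numbered 10 without a detection filter and 7 to 11 without each array, against 18. Other mitotic genes called numbered 106 with spike-in scaling (29 higher, 77 lower), 12 without a detection filter and 4 to 19 without each array, against 27. With the replicate number as a block, and without the pair of arrays high in hepatocyte markers, limma called 0 of all genes, 0 members and 0 other mitotic genes, with 4554 and 4137 genes at an unadjusted p under 0.05. Both fits leave fewer degrees of freedom. Deviations of same-numbered arrays had correlations over genes of -0.08, 0.11 and -0.17, and those of unlike-numbered arrays ran from -0.13 to 0.22. With 3 arrays a group these values cannot show whether the replicate number pairs rats. Of the members 22 were highest on monuron replicate 2, and 22 again under quantile normalization and median centring. Signal near background limits Gtse1, Aurkb, Kif2c, Cdca8, Nek2, Cdca2 and Cenpf, whose corn oil arrays were not all well above it. With normexp and quantile normalization the log2 fold change was 0.58 for Kif2c (1.89 in the main fit), 0.33 for Cdca8 (0.86) and 0.54 for Cenpf (1.32).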
